A study of Homo sapiens with 18 samples.

Results

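The genes of 9 proteins stored in azurophil granules, the primary granules of neutrophils and their precursors, were examined in the merged peak lists of linker histones H1.2 and H1.5. The 9 genes were MPO, ELANE, PRTN3, AZU1, CTSG, LYZ, RNASE2, RNASE3 and CFD. They were taken by name from a set of 20098 annotated protein-coding genes on chromosomes 1 to 22 and X. The naming rule used no peak, but the genes were chosen with earlier results of these data known. They lie at 5 loci, because AZU1, PRTN3, ELANE and CFD are neighbours on chromosome 19 and RNASE2 and RNASE3 are neighbours on chromosome 14. The cells were undifferentiated HL-60/S4, 1 human myeloid leukemia line, with no other genotype or treatment. In xChIP-seq the cells were fixed and sonicated before a rabbit polyclonal antibody to H1.2 or H1.5 was added, and in xxChIP-seq the antibody was bound in permeabilized fixed cells and held by another fixation before sonication. The 18 samples comprised 12 immunoprecipitated samples, 3 replicates for each pairing of protocol and antibody, and 6 Input samples that were not analysed here. The question was how the 2 isotypes and the 2 protocols mapped over these genes. Each of the 4 lists is a merge over its 3 replicates and gives only where a peak starts and ends, so depth is unknown, no replicate spread can be computed, and no comparison below has a test. Peaks covered 26.4% of the known sequence in the xChIP H1.2 list, 16.3% in xChIP H1.5, 20.2% in xxChIP H1.2 and 17.2% in xxChIP H1.5. Peak positions hold no expression values, so the myeloid label of the line and the activity of the 9 genes could not be checked against markers.

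Azurophil granules are filled during the promyelocyte stage of neutrophil development, when the genes for their enzymes are transcribed together, and they deliver these enzymes to ingested microbes. Among their transcriptional regulators are PU.1, C/EBP factors, MYB and RUNX1. Linker histones bind nucleosomes where DNA enters and leaves the particle and help to compact the chromatin fibre. ELANE (neutrophil elastase), PRTN3 (proteinase 3) and CTSG (cathepsin G) are serine proteases, and AZU1 (azurocidin) is a related antimicrobial protein that has lost protease activity. CFD (complement factor D) is a serine protease of the alternative complement pathway. MPO (myeloperoxidase) makes hypochlorous acid, LYZ (lysozyme) cleaves bacterial cell walls and is found in other granule types as well, and RNASE2 and RNASE3 are ribonucleases best known from eosinophil granules.

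The promoters of the 9 genes were all poor in CpG. In the 300 bp from 250 bp before to 50 bp after the start of the coding transcript, the ratio of observed to expected CpG ran from 0 for LYZ to 0.360 for CFD with a median of 0.263, beside a median of 0.752 over 20094 protein-coding promoters. All 9 lay at or below a ratio of 0.4, a level that 26.8% of promoters did not exceed. The GC content of the same windows ran from 42.7% for LYZ to 69.7% for CFD. The 9 genes therefore shared low CpG content in spite of very different base composition. The 250 bases before 5 of the starts are printed from the GRCh37 (hg19) reference because they differ in the peaks that lie over them. PRTN3 (chr19:840749-840998, plus strand) and AZU1 (chr19:827587-827836, plus strand) lay wholly inside 1 long xChIP H1.2 peak. MPO (chr17:56358297-56358546, minus strand) held the edge of an xChIP H1.2 peak, and RNASE2 (chr14:21423396-21423645, plus strand) and RNASE3 (chr14:21359294-21359543, plus strand) held no peak. Each is written 5′ to 3′ in the direction of transcription, and capitals mark exact matches, on either strand, to GAGGAA (the core letters used for PU.1), TTGCNNAA (C/EBP) or TATAA (TATA box).
PRTN3: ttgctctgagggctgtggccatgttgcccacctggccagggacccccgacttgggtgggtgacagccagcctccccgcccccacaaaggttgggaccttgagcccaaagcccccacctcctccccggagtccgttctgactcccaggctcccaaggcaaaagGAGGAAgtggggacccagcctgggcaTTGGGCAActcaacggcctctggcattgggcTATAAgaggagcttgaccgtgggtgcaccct
AZU1: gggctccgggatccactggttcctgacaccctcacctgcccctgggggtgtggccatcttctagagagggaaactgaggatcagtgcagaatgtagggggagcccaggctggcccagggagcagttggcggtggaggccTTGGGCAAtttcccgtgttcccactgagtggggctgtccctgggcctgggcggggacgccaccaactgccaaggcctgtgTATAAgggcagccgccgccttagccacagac
MPO: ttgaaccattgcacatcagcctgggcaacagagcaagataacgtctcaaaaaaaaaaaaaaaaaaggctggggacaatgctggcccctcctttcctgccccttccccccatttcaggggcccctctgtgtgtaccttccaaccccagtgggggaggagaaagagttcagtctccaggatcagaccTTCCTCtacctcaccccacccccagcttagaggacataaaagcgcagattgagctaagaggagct
RNASE2: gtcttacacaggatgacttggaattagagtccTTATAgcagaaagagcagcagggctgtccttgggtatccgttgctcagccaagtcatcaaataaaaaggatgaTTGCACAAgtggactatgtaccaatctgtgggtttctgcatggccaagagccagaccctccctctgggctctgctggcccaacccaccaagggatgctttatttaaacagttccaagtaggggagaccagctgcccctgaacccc
RNASE3: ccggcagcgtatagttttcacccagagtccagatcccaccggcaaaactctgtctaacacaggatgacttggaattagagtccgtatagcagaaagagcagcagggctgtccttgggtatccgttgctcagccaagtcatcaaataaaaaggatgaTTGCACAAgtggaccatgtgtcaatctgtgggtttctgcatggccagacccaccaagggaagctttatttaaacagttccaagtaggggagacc

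PRTN3 and AZU1 both had TATAA beginning 31 bp before the start (position -31, with the base just before the start as -1). Both also had TTGGGCAA, a match to TTGCNNAA on the other strand, at -62 in PRTN3 and at -111 in AZU1. RNASE2 and RNASE3 shared TTGCACAA at -145 and -94. The 250 bases before their starts aligned over 233 columns with 193 identical bases, 6 mismatches and 34 gaps. GAGGAA was found in 4 of 9 genes (MPO, ELANE, PRTN3 and CTSG) and in 27.5% of all promoters. TTGCNNAA was found in 4 of 9 (PRTN3, AZU1, RNASE2 and RNASE3) and in 8.42%. PRTN3 and AZU1 are neighbours on chromosome 19 and RNASE2 and RNASE3 on chromosome 14, so these are not 4 separate loci. TATAA was found in 3 of 9 (PRTN3, AZU1 and RNASE2) and in 17.2% of promoters. In RNASE2 the match lay at -218 on the other strand, unlike the -31 of PRTN3 and AZU1. The RUNX letters TGTGGT were in 1 of 9 (LYZ) and in 11.2%. The short MYB letters AACNG, which are not capitalised above, were in 8 of 9 genes and in 74.7% of promoters, and in ELANE a match overlapped GAGGAA. CFD held none of the 5 motifs. These are matches of letters, not measured binding. All 9 promoters were poor in CpG, and the share of each motif among CpG-poor promoters was not computed.

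**Figure D1:**
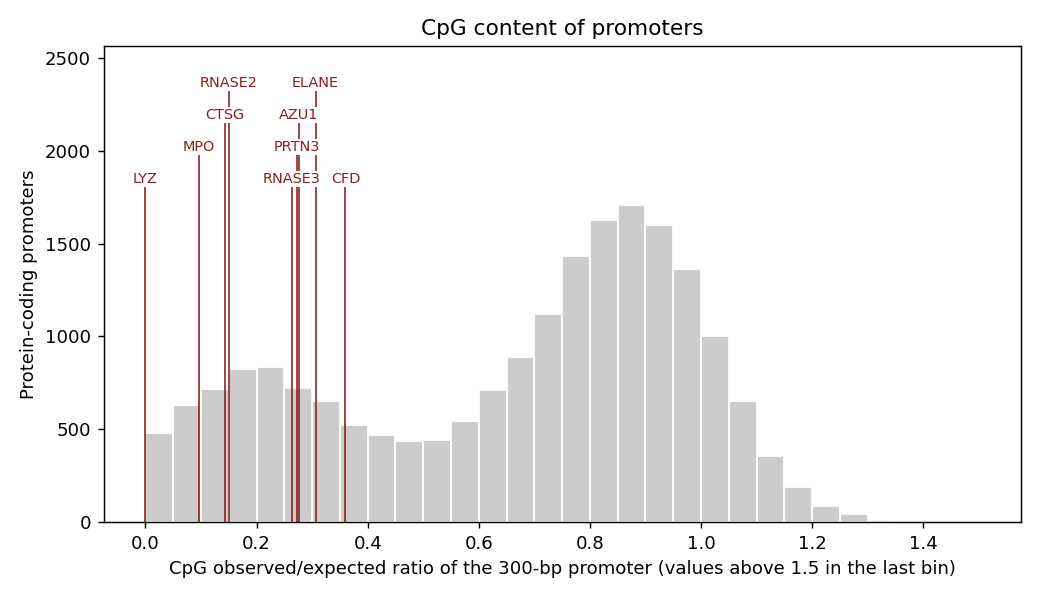
Histogram of the CpG observed/expected ratio (x axis, no unit) of 300-bp promoters against the number of protein-coding promoters (y axis), with a line for each of the 9 genes. All 9 lines fall between 0 and 0.360, in the lower of the histogram's peaks.

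At the gene starts, peaks over the azurophil genes came from xChIP and not from xxChIP. Within 1000 bp of the annotated start (TSS), xChIP H1.2 had a peak at 6 of 9 genes, AZU1, PRTN3, ELANE, CFD, MPO and LYZ, beside 48.2% of all protein-coding genes. The 6 genes stand for 3 of 5 loci, since 4 of them lie under 1 peak. An xChIP H1.5 peak was present at 3 of 9 (AZU1, CFD and LYZ), beside 21.6% of all genes. In xxChIP no member had a peak at its start for H1.2, beside 8.77% of all genes, or for H1.5, beside 7.91%. At backgrounds of this size 0 of 9 is not a result about these genes. A peak from xChIP with none from xxChIP was found at 6 of 9 starts, beside 48.5% of all genes, and no peak of any list at 3 of 9 (CTSG, RNASE2 and RNASE3), beside 37.9%. Of the 6 starts with xChIP H1.2, those of AZU1, CFD and LYZ also had xChIP H1.5, beside 14.6% of all genes with both, and those of PRTN3, ELANE and MPO had H1.2 without H1.5, beside 33.6%. The 5378 promoters with a CpG ratio of at most 0.4 give a closer background. Of these, 41.4% had an xChIP H1.2 peak, 20.3% an xChIP H1.5 peak, 16.4% an H1.2 peak in xxChIP and 16% an H1.5 peak in xxChIP. Peaks from xChIP without xxChIP were found at 38% of them, and no peak of any list at 36.2%.

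AZU1, PRTN3, ELANE and CFD lay in a row under 1 xChIP H1.2 peak and were almost free of xxChIP peaks. The peak, at chr19:809035-866987, was 57953 bp long, against a median of 2334 bp over the 142645 peaks of that list, and 0.867% of them were at least as long. It overlapped 6 protein-coding genes, the 4 granule genes and their neighbours PTBP1 and PLPPR3. AZU1 (chr19:825097-832018, plus strand, 6922 bp), PRTN3 (chr19:840999-848175, plus, 7177 bp) and ELANE (chr19:851014-856247, plus, 5234 bp) were covered over 100% of their length, introns and exons alike. For CFD (chr19:859453-867884, plus, 8432 bp) the share was 89.4%, as the peak ended before the annotated gene did. Over the longest CFD coding transcript it was 100%. By the annotated genes, whole-gene coverage by xChIP H1.2 was thus reached in 3 of 9 azurophil genes, all at 1 locus, beside 10.2% of all genes. Among genes whose 100-kb window differed by at most 1 percentage point in GC, median body coverage was 55.9% to 58.5%. Over all genes the median was 26.3%. AZU1, PRTN3 and ELANE ranked at percentiles 87.8 to 88.6 of these genes and CFD at percentile 72.1.

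xChIP H1.5 covered only small stretches of the same cluster. Inside the long H1.2 peak it held 12932 bases, or 22.3%, whereas xxChIP H1.2 held 0 and xxChIP H1.5 held 1089 bases (1.88%) in 1 peak between AZU1 and PRTN3. An xChIP H1.5 peak of 9727 bp, at chr19:815870-825596, crossed the annotated start of AZU1 and covered 7.22% of its body and 75.0% of its start window. The start of the longest AZU1 coding transcript lies 2740 bp downstream of that annotated start, and around it xChIP H1.5 coverage was 0. At CFD a peak of 1012 bp, at chr19:859155-860166, lay over the start and the first exon, and the gene body was covered over 8.47%. PRTN3 and ELANE had no xChIP H1.5 peak in the gene or within 1000 bp of the start. By the annotated starts, the 2 isotypes thus overlapped in xChIP at the first and last genes of the row and not at the proteases between them. By the starts of the coding transcripts, they overlapped at CFD only.

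The cluster lies in GC-rich sequence, where much of the surroundings carried xChIP H1.2 peaks. The 100-kb window centred on each of the 4 starts had a GC content of 58.8% to 60%, and each gene was set against 193 to 242 protein-coding genes whose window was within 1 percentage point. In these 100-kb windows xChIP H1.2 covered 87.1% around AZU1, 80.6% around PRTN3, 82.2% around ELANE and 86.9% around CFD. The medians of the GC-matched genes were 65% to 67.1%, and the 4 genes ranked at percentiles 82.4 to 92.4. The 4 windows overlap one another heavily, so these are not 4 separate measurements. xChIP H1.5 covered 14.0% to 18.2%, near matched medians of 14.2% to 15.8%. xxChIP H1.2 covered 0 around AZU1 and 1.64% around each of the other three genes, against matched medians of 1.60% to 2.15%, and xxChIP H1.5 covered 1.09% to 2.70%. Low xxChIP coverage was therefore shared with other genes of this GC content.

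**Figure D2:**
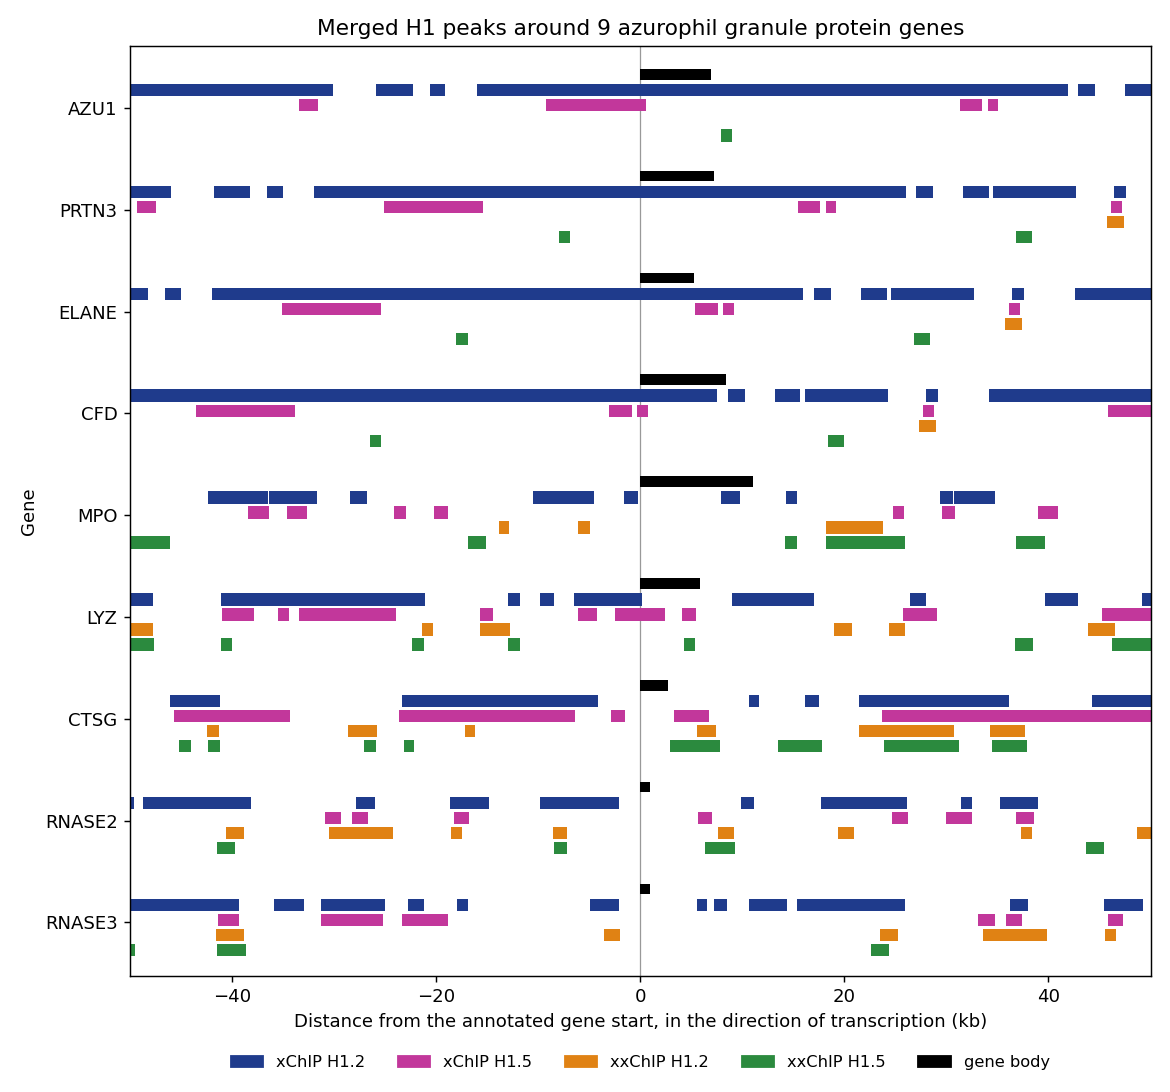
Map of merged peaks around the 9 genes, with the distance from the annotated start in kb in the direction of transcription on the x axis and 1 row of bars for each list under a black bar for the gene body. The 57953-bp xChIP H1.2 peak spans the rows of AZU1, PRTN3, ELANE and CFD, and the black bars of CTSG, RNASE2 and RNASE3 have no peak under them.

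CTSG, the remaining serine protease, carried no peak of any list but lay amid long xChIP H1.5 peaks. The gene (chr14:25042724-25045456, minus strand, 2733 bp) and its start window were covered over 0% in all 4 lists. The nearest xChIP H1.5 peak began 1479 bp upstream of the start, and the nearest xChIP H1.2 peak, chr14:25049623-25068846, began 4167 bp upstream and was 19224 bp long. In the 100-kb window xChIP H1.5 covered 59.7%, against a median of 15.4% for 2856 genes of similar GC, at percentile 99.5. The xChIP H1.5 peaks there included 1 of 36621 bp (chr14:24985126-25021746), 1 of 17219 bp (chr14:25051858-25069076) and 1 of 11350 bp (chr14:25079805-25091154). CTSG was the one azurophil gene with more xChIP H1.5 than xChIP H1.2 coverage in that window, with H1.2 at 47.1% against a matched median of 24.3%. The 2 isotypes shared 39638 bases of the window in xChIP. xxChIP H1.2 covered 19.6% and xxChIP H1.5 24.5%, against matched medians of 14.5% and 11.0%. For comparison, 45.2% of 217 genes of similar GC and length had none in the gene body. Unique 50-mers made up 100% of the CTSG gene body and start window. The part of gene length in the absence of peaks was not tested.

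MPO had little coverage for its base composition in xChIP H1.2 and more in xxChIP H1.5. The gene (chr17:56347216-56358296, minus strand, 11081 bp, 12 exons) was covered by xChIP H1.2 over 17.1% of its body, by a single peak of 1892 bp (chr17:56348506-56350397) that touched exons 10 and 11. The median of 1751 GC-matched genes was 49.2%, and MPO ranked at percentile 20.8. A second xChIP H1.2 peak, chr17:56358498-56359920, ended 202 bp upstream of the start, so that the start itself was not covered and 39.9% of the start window was. No peak of the other 3 lists overlapped MPO or its start window. In the 100-kb window xChIP H1.2 covered 27.9% against a matched median of 58.6% (percentile 16.3), the lowest value of the 9 genes for this list. xxChIP H1.5 covered 17.4% against 5.04% (percentile 91.7), in peaks away from the gene, among them 1 of 7780 bp at chr17:56332360-56340139, downstream of the gene. xxChIP H1.2 had a peak of 5591 bp in the same place (chr17:56334547-56340137) and covered 7.84% of the window against 6.44%.

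Of the 9 genes, LYZ alone had more xChIP H1.5 than H1.2 coverage over the gene body. The gene (chr12:69742161-69748014, plus strand, 5854 bp) was covered by xChIP H1.5 over 65.9% of its body, against a median of 11.3% for 2619 genes of similar GC, at percentile 99.1. xChIP H1.2 covered 2.48% and xxChIP H1.2 covered 0%. The difference of xChIP H1.2 minus H1.5 was -63.5 percentage points, and 0.449% of all genes had a lower value. Neither comparison was matched for length, and the median length of all genes was 27150 bp. Among 328 genes of similar GC and length, 69.8% had no xChIP H1.5 peak in the body. The part of gene length in these ranks was not tested. The xChIP H1.5 coverage came from 2 peaks, chr12:69739684-69744607 over the start and the first exons, and chr12:69746204-69747616 over part of exon 4. In the start window xChIP H1.5 covered 100% and xChIP H1.2 covered 57.2%, because the H1.2 peak chr12:69735661-69742305 ended 144 bp past the start. The isotypes therefore shared the upstream sequence and parted within the first exon. LYZ was also the one member with xxChIP coverage in its body, 19.3% for H1.5 from a peak of 1130 bp (chr12:69746426-69747555). That peak lay wholly inside the second xChIP H1.5 peak and held 623 exonic bases.

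RNASE2 (chr14:21423646-21424595, plus strand, 950 bp) and RNASE3 (chr14:21359544-21360507, plus strand, 964 bp) had no peak of any list in the gene or the start window. The nearest xChIP H1.2 peak ended 2073 bp upstream of RNASE2, at chr14:21413784-21421573, and 2120 bp upstream of RNASE3, at chr14:21354647-21357424. An xxChIP H1.2 peak, chr14:21355953-21357535, ended 2009 bp upstream of RNASE3, so peaks of both protocols stopped at a similar distance there. In the 100-kb windows xChIP H1.2 covered 38.7% around RNASE2 and 47.6% around RNASE3, against matched medians of 34.99% and 31.3%. xChIP H1.5 covered 11.7% and 17.3%, against matched medians of 15.6% and 15.5%. The xxChIP values were 16.1% and 13.5% for H1.2, and 7.71% and 5.07% for H1.5. In these windows neither gene was above percentile 71.2 or below percentile 27.4 in any list. Among genes of similar GC and length 57.95% of 88 for RNASE2 and 60% of 115 for RNASE3 had no peak in the gene body. Unique 50-mers made up 77.9% of the RNASE2 start window and 76.5% of that of RNASE3, the lowest of the 9, and the authors kept only uniquely mappable reads. The part of length or of mappability in the absence of peaks was not tested.

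Over the 9 genes the count above the GC-matched median depended on the window. Any peak in the gene body was found for 6 of 9 genes in the xChIP H1.2 list (82.9% of all genes) and for 3 of 9 in that of xChIP H1.5 (70.3%). In the xxChIP lists it was found for 0 of 9 with H1.2 (60.5% of all genes) and 1 of 9 with H1.5 (57.9%). The 9 genes are 950 to 11081 bp long, and among genes of similar GC and length 71.6% to 100% had no xxChIP H1.2 peak in the body, so the absence is shared with genes like them. In the gene body 4 of 9 lay above their matched median in the xChIP H1.2 list, 3 in that of xChIP H1.5, 0 with H1.2 and 1 with H1.5 under xxChIP. At the start these counts were 4, 3, 0 and 0, which do not measure an excess. AZU1 was covered over 100% by xChIP H1.2 and could not exceed its matched median of 100%. Every xxChIP matched median was 0 there, with 88.2% to 99.6% of matched genes at 0. The 4 genes above the median for xChIP H1.2 in the body were those of the chromosome 19 cluster. In the 100-kb windows the counts were 8, 5, 6 and 5. By definition about as many matched genes lie above a matched median as below it. The 8 for xChIP H1.2 were all genes but MPO. They include the 4 chromosome 19 genes, whose windows overlap, and RNASE2 and RNASE3, whose windows overlap as well. Of the 6 for xxChIP H1.2, ELANE and PRTN3 each had 1.64% against 1.60%, from 1 shared peak. The 6 became 2 when the windows reached 25 or 100 kb to either side of the start. The median over the 100-kb windows of the 9 genes was 47.6% with H1.2 and 15.8% with H1.5 under xChIP. Over all protein-coding genes it was 36.4% and 15.4%. Under xxChIP the median of the 9 was 7.84% with H1.2 and 5.07% with H1.5, beside 9.79% and 7.70% over all genes. The median of the 9 GC-matched medians was 58.6% and 15.5% under xChIP, and 6.44% and 5.04% under xxChIP. The direction against matched genes was thus opposite to that against all genes, except for xChIP H1.5. CTSG, RNASE2 and RNASE3 made up the 3 of 9 gene bodies without a peak of any list, beside 8.98% of all genes, whose median length was 27150 bp. Without the long chromosome 19 peak, an alternative chosen after seeing the data, xChIP H1.2 peaks lay at 2 of 9 starts. In that list 0 of 9 gene bodies and 4 of 9 of the 100-kb windows then exceeded their matched median.

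**Figure D3:**
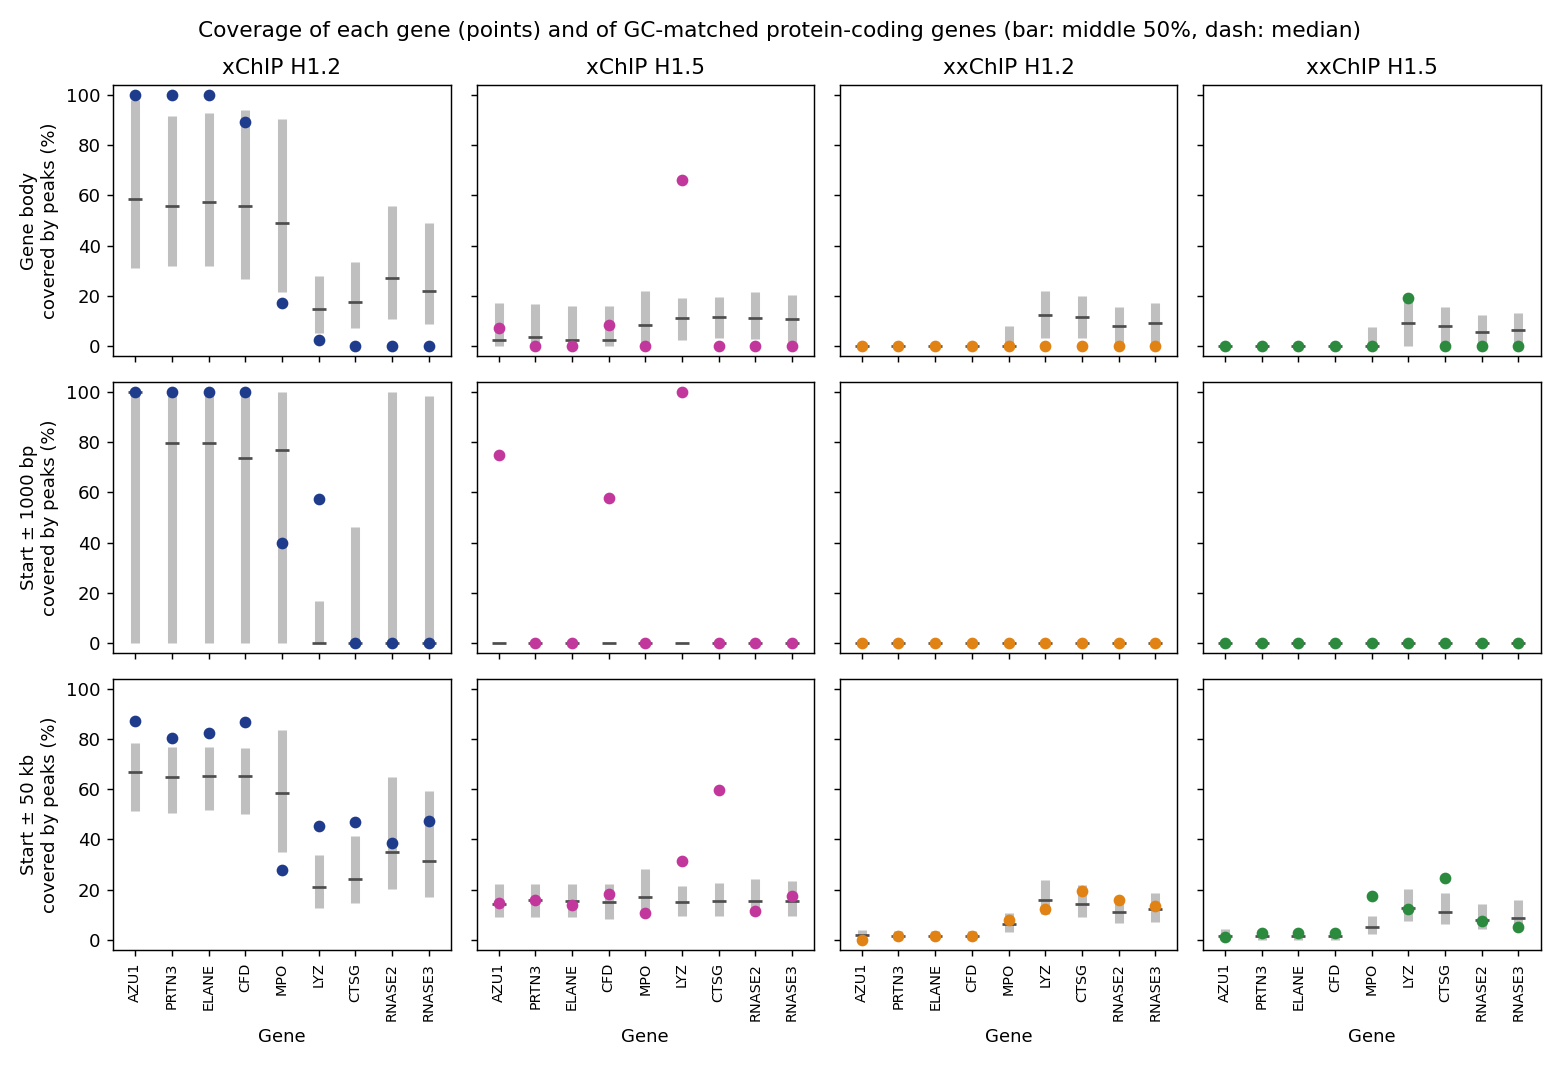
Percent of each gene's body, start window (± 1000 bp) and 100-kb window (start ± 50 kb) covered by peaks, in rows, for the 4 lists, in columns, with points for the 9 genes and grey bars and dashes for the middle 50% and the median of their GC-matched genes. The LYZ body (65.9%) and the CTSG 100-kb window (59.7%) stand far above their bars for xChIP H1.5, and every xxChIP point in the start windows is at 0.

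Between protocols, xChIP coverage by either isotype was higher than xxChIP coverage by either isotype in the 100-kb window of all 9 genes, beside 77.9% of all genes. The difference was 86.0 percentage points for AZU1, 82.8 for CFD, 78.1 for ELANE and 76.5 for PRTN3. It was 37.5 for RNASE3, 37.3 for CTSG, 34.1 for LYZ and 23.5 for RNASE2, and smallest for MPO at 14.05, where xChIP covered 33.7% and xxChIP 19.6%. The median over all genes was 26.6 points, so RNASE2 and MPO lay below it. Around the 4 chromosome 19 genes, whose windows overlap, GC-matched medians were 67.5% to 69.85% in xChIP and 3.03% to 3.5% in xxChIP. They were 62.8% and 10.6% around MPO, 42.75% and 17.0% around RNASE2, and 38.6% and 18.4% around RNASE3. Around CTSG they were 33.3% and 21.65%, and around LYZ 30.05% and 24.3%. In the gene body 6 of 9 had more xChIP than xxChIP coverage, beside 68.9% of all genes, and CTSG, RNASE2 and RNASE3 had none of either. Between isotypes, xChIP H1.2 minus H1.5 coverage in the 100-kb window was above 0 for all but CTSG, whose difference was -12.6 points, lower than in all but 1.497% of genes. A positive difference was found in 84.6% of all genes. In xxChIP the difference of H1.2 minus H1.5 in the 100-kb window ran from -9.56 points for MPO, below which 5.18% of all genes lay, to 8.41 for RNASE3, beside a median of 1.54 over all genes. In the gene body it was -19.3 points for LYZ and 0 for the other genes of the set.

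**Figure D4:**
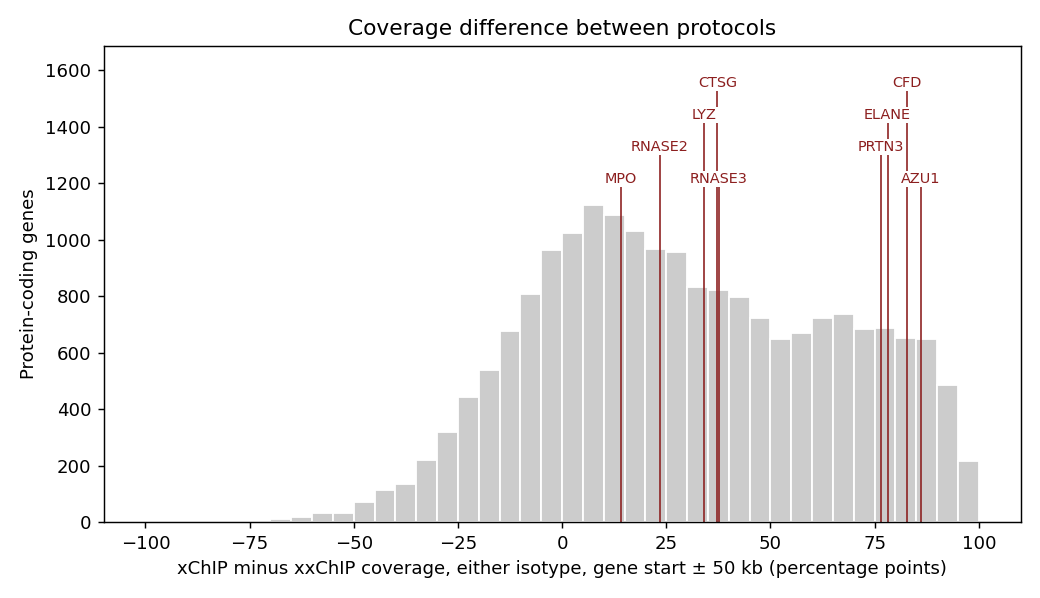
Histogram over protein-coding genes (y axis, number of genes) of xChIP minus xxChIP coverage by either isotype in the 100-kb window (x axis, percentage points), with a line for each of the 9 genes. All 9 lines lie above 0, from 14.05 for MPO to 86.0 for AZU1. Those of AZU1, CFD, ELANE and PRTN3, whose windows overlap, stand together at the right.

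Other genes of azurophil granules were near the background at their starts. Of 8 partners, PRSS57, BPI, DEFA4, CTSC, CST7, SRGN, SERPINB1 and CD63, 4 had an xChIP H1.2 peak at the start, beside 48.2% of all genes, and 0 had a peak of either xxChIP list there, beside 8.77% for H1.2 and 7.91% for H1.5. PRSS57, a serine protease related to those of the chromosome 19 cluster, was covered by xChIP H1.2 over 100% of its body and 82.7% of its 100-kb window. The GC-matched medians were 55.96% and 65.2%. Its distance from that cluster is not given here, so it is not counted as a separate locus. SRGN, the proteoglycan that packs granule enzymes, was covered by xChIP H1.2 over 71.01% of its body and 100% of its start window, and its 100-kb window held no xxChIP peak. CTSC, which activates the granule serine proteases, and SERPINB1, an inhibitor of elastase, had xxChIP H1.2 coverage of 23.1% and 14.2% in their bodies. An xxChIP H1.2 peak in the body was found for 3 of the 8 partners, beside 60.5% of all genes, and the difference from the 9 members was not tested.

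Of 12 specific and gelatinase granule genes, which neutrophils express later in maturation, 6 had an xChIP H1.2 peak at the start and 3 an xChIP H1.5 peak, near the 48.2% and 21.6% of all genes. In xxChIP, 3 had an H1.2 peak and 1 had an H1.5 peak, beside 8.77% and 7.91%. CAMP, the precursor of an antimicrobial peptide, was covered by xChIP H1.2 over 100% of its body and start window. MMP9, a gelatinase, had its start window covered over 85.1% by xxChIP H1.5, 51.3% by xChIP H1.5 and 7.05% by xChIP H1.2. PGLYRP1, HP and TCN1 had xxChIP H1.2 coverage of 14.7%, 20.3% and 23.1% at the start. None of the 9 azurophil genes had xxChIP coverage at the start, which at these backgrounds is not a result about them. The difference between the lists was not tested. By the root-mean-square distance over 12 values (3 windows in 4 lists), the protein-coding genes nearest to the median pattern of the 9 were DPH2 at 1.96 percentage points, GSDMB at 2.43, HES6 at 3.37, COASY at 3.69 and ZNF446 at 3.81. The 9 genes themselves lay 8.47 (MPO) to 36.5 (AZU1) points from that median, farther than the 5 named, and 18081 of 19839 other genes were within the largest of these distances, so the median is not a pattern the group shares. Among the 9 themselves, ELANE and PRTN3 were closest at 0.706, followed by RNASE2 and RNASE3 at 3.21 and by AZU1 and CFD at 5.99, and each of these pairs shares part of its 100-kb window.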

How the data were processed

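After alignment to hg19 with Bowtie2, the authors retained reads that map uniquely, ran MUSIC on each replicate and deposited 1 merged list of peaks per protocol and antibody. The deposited columns are chromosome, start and end, with no score. Merging can lengthen peaks, and the number of replicates behind a peak is not recorded. The gene annotation was GENCODE v44 on GRCh37. The percent of bases under peaks was computed for the gene body, the annotated start ± 1000 bp and ± 50 kb. Each gene was set against protein-coding genes, without the 9, whose 100-kb window differed by at most 1 percentage point in GC, after dropping windows with over 10% unknown bases, and percentiles count ties as one part above and an equal part below. A peak was counted from 1 shared bp. Similar length was within a factor of 2. Coverage steps were tested on simulated data. Python 3.11.15, numpy 2.4.6, pandas 2.3.3, biopython 1.88, numba 0.67.0 and matplotlib 3.10.9 were used. The named genes were the 9, genes of the granule lists, nearest neighbours and the 5 genes more than 1 Mb away with the most similar coverage. The members and gene lists were chosen with earlier results of these data known. Alternatives changed the window, GC tolerance, minimum peak length, overlap and start. The promoter sequences of 4 genes are not reported here.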

Additional observations from a re-analysis of the deposited data

How the results depend on the processing

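No paired analysis was possible because each list is a merge over its replicates, and leaving out a replicate could not be run for the same reason. Of 118 alternative values for 17 counts of members, 106 stayed within 1.5 times the reported count. The others are counts of 9 genes. Without GC matching, xChIP H1.5 exceeded the median in 1 gene body (3 as reported). With peaks of at least 2000 bp, xxChIP H1.5 exceeded it in 0 gene bodies (1) and 2 of the 100-kb windows (5). With a start window of ± 500 bp, xChIP H1.2 exceeded it at 2 starts (4), and with ± 2500 bp xxChIP H1.2 exceeded it at 1 start (0) and had a peak at 1 start (0). With ± 25 kb and with ± 100 kb, xxChIP H1.2 exceeded it in 2 windows each (6). Without the long chromosome 19 peak, chosen after seeing the data, xChIP H1.2 exceeded it in 0 gene bodies (4), 1 start window (4) and 4 of the 100-kb windows (8), and had a peak at 2 starts (6), while starts with xChIP peaks only fell to 4 (6). Matching on CpG-poor promoters, also chosen after seeing the data, gave 5, 3, 0 and 0 starts above the median. The cause of these changes was not tested, apart from those that removing peaks or altering a window brings by construction. Depth is unknown, so a stretch without a peak cannot be read as a stretch without H1.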

Other observations

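Of 17 relatives of the granule genes in the same families, 10 had an xChIP H1.2 peak within 1000 bp of the start, beside 48.2% of all protein-coding genes, and 3 an xChIP H1.5 peak, beside 21.6%. In xxChIP, 0 had an H1.2 peak, beside 8.77% of all genes, and 1 had an H1.5 peak, beside 7.91%. These shares are near the background. LPO, the peroxidase of secretions and a relative of MPO, had its start window covered over 100% by each xChIP list, while EPX, the eosinophil peroxidase, had none. CMA1, the mast cell chymase beside CTSG, had an xChIP H1.5 coverage of 59.5% in its 100-kb window, part of which it shares with CTSG. Of the 4 eosinophil granule genes PRG2, PRG3, CLC and EPX, 1 had an xChIP H1.2 peak at the start and 0 had a peak of the other lists there.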
